A study of Mus musculus with 33 samples.

Results

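The 9 genes described here encode ubiquitin ligases, or partners of one, that act in antiviral and inflammatory signalling: Trim21, Trim25, Trim56, Rnf135, Rnf114, Dtx3l, Parp9, Rbck1 and Rnf31. They were taken by name from the 773 genes of a mouse immune panel (9 of 773), by a rule that uses no measured values, though the genes were proposed with earlier results of these data known, and were described in all 9 groups of the study. Right-lung RNA of 33 samples was counted with nCounter, in which fluorescent barcodes hybridise to single RNA molecules and are counted without amplification. The study asked how the lung responds when an adeno-associated virus (AAV) vector carrying surfactant protein B is given again.

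All animals were CCSP-rtTAtg/(teto)7Sftpb/Sftpb-/- mice on FVB/N, which lack their own Sftpb and make surfactant protein B only while doxycycline drives a transgene in airway epithelial cells through the CCSP promoter. In 24 lungs taken at day 97 there were 6 groups of 4, each of 2 female and 2 male samples. The AAV-hSPBTLR9i repeat and AAV-hSPB repeat groups received their vector intratracheally on day 0 and again on day 90. The AAV-hSPBTLR9i single and AAV-hSPB single groups received it on day 0 alone. These 4 groups lost doxycycline on day 7. The off-doxycycline group had no vector and lost doxycycline on day 94, and the on-doxycycline group had no vector and kept it. Another 9 lungs were taken 3 h after AAV-hSPBTLR9i, AAV-hSPB or PBS, in 3 groups of 3 with 2 female and 1 male samples each. The labels do not spell out what TLR9i stands for. They do not state that every sample is a different animal, so a p-value here reflects the spread among lung samples. Samples numbered 1 to 12 are those on and off doxycycline and after a single AAV-hSPB dose, and samples 13 to 24 are the other day 97 groups, so that group and sample number cannot be told apart.

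Ubiquitin ligases attach chains of the small protein ubiquitin to other proteins, and the type of chain decides whether the target is degraded or becomes a platform for signalling. In cells that sense viral nucleic acid, such chains switch on the pathways that lead to interferon and NF-kB, and interferon in turn raises the transcription of several of the ligases. Trim25 and Rnf135 (Riplet) ubiquitinate the RNA sensor RIG-I, Trim56 acts on the DNA-sensing pathway, and Trim21 binds the antibodies that coat a virus entering the cytosol. Rnf31 (HOIP) and Rbck1 (HOIL-1) are subunits of the linear ubiquitin chain assembly complex (LUBAC), which builds linear chains in NF-kB and TNF-receptor signalling. Dtx3l and Parp9 form a complex that joins ubiquitination with ADP-ribosylation, and Rnf114 is an interferon-inducible RING ligase.

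Promoter sequences were found for 8 of the 9 members in the RefSeq table of GRCm38.p6, which gives 250 bases before to 50 bases after each start site. The 5 members that passed a test below are shown, 5′ to 3′ on the gene's own strand because they carry the differences reported below. Capitals mark GAAANNGAAA, the core of the interferon-stimulated response element, on either strand.
Trim21, chr7:102565433-102565732, minus strand: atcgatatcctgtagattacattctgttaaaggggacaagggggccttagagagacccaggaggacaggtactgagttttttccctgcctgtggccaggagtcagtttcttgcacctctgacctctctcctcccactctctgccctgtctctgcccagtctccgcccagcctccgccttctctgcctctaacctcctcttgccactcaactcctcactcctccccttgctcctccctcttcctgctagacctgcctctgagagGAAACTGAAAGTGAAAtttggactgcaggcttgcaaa
Rbck1, chr2:152332376-152332675, minus strand: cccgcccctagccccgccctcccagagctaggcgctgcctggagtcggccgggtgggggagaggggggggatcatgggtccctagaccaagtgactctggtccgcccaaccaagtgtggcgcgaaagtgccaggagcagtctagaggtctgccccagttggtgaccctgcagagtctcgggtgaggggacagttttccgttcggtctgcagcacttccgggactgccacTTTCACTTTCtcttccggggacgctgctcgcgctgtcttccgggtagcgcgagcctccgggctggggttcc
Rnf31, chr14:55591492-55591791, plus strand: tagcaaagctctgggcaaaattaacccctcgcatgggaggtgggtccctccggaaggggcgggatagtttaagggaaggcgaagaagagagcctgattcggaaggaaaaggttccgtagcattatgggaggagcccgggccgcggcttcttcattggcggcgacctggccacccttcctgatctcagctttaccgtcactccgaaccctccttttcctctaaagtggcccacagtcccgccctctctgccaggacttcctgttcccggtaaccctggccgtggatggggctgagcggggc
Dtx3l, chr16:35938978-35939277, minus strand: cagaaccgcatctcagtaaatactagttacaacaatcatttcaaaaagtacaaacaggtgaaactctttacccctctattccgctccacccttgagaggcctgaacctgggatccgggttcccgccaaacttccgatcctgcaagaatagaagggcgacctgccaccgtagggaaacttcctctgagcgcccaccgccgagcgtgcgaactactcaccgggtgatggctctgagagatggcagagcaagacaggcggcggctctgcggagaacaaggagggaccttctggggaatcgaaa
Rnf135, chr11:80183619-80183918, plus strand: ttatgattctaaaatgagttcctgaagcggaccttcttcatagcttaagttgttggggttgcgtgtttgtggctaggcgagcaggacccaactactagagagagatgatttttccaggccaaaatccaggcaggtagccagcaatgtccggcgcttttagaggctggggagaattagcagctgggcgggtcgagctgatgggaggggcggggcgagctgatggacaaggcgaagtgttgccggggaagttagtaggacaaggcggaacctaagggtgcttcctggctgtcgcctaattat
In Trim21, 2 overlapping copies began at bases 264 and 270 of the window, downstream of the start site, and in Rbck1 a copy on the opposite strand began at base 230. The motif lay in 2 of the 10 windows of the members (Rnf114 and Rbck1 have 2 windows each), in 7.63% of the windows of panel genes and in 3.44% of all 32851 windows. The windows of Rnf31, Dtx3l and Rnf135 do not hold these letters. The gamma-activated site TTCNNNGAA was in 0 of the 10 windows, against 10.8% of panel windows and 8.30% of all windows. By RefSeq, the spans of Dtx3l (chromosome 16, 35926515 to 35939027) and Parp9 (35938470 to 35972621) overlap by 558 bases, and the probe positions on either transcript were not analysed here.

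The total count recovered from the deposited values ran from 597788 to 1131011 per lung at day 97 and from 1156612 to 1710291 at 3 h. Every member count at day 97 was above a background taken from control probes. The lowest was 65 (Trim21), against a background of 12.3 to 32.7. This was set in each day 97 lung 2 SD above the mean of the 8 control probes with the least signal. The control values came from the series matrix, whose unit is not stated, so they need not be on the scale of the recovered counts. No background was set for the 3 h lungs, where the lowest member count was 143. At 65 counts, counting error alone gives an SD of 0.179 on the log2 scale. AAV-hSPB repeat replicate 2 stood apart from its group, with a summed endothelial level (Pecam1 and Vwf, 2 of 6 listed markers) of 4214.0, against a group median of 8955.9, and with the lowest T and B cell sums of its group. The effect of leaving it out is given beside each call it changes. On-doxycycline replicate 1 held transcripts of liver (3 measured markers of 9 listed) at a summed level of 47868.7, against 336.5 to 896.3 in the other day 97 lungs. Of 8 lung epithelium markers only Cdh1 is on the panel, so the tissue label could be checked by it alone. Its linear level was 2780.3 to 3057.5 in AAV-hSPBTLR9i repeat lungs and 2847.4 to 3777.4 in AAV-hSPB repeat lungs, against 3335.0 to 3909.2 off doxycycline and 3110.8 to 3470.3 on doxycycline. All 4 AAV-hSPBTLR9i repeat lungs were thus below all 8 lungs without vector, and the part of this in the members' differences was not tested.

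Levels are log2 normalised counts as the authors scaled them, and differences between groups are on this log2 scale with the standard error of limma (n = 4 per group at day 97). A gene passed where its p, adjusted over the 773 genes, was under 0.05. In AAV-hSPB repeat lungs against on-doxycycline lungs, 4 of 9 members rose, namely Rnf31, Rbck1, Rnf135 and Dtx3l, and 0 fell, while 23.3% of all genes rose and 26.3% passed in either direction. Rnf31, Rbck1 and Rnf135 did so without overlap between the groups (3 of 9 members), as 18.2% of all genes were higher without overlap. Against off-doxycycline lungs Rnf31, Rbck1, Rnf135 and Dtx3l rose, all 4 without overlap, while 22.5% of all genes rose, 27.0% passed in either direction and 15.3% were higher without overlap. In AAV-hSPBTLR9i repeat lungs 0 of 9 passed against on-doxycycline lungs (Trim21 had an unadjusted p under 0.05, as did 26.0% of all genes), where 11.5% of all genes passed, and 3 rose against off-doxycycline lungs, Trim21, Rnf135 and Dtx3l, where 14.5% of all genes rose and 17.7% passed. Of these 3, Trim21 and Dtx3l did not overlap, as was so for 16.9% of all genes in that direction. These comparisons share their control lungs and their repeat lungs. The repeat and single-dose lungs lost doxycycline on day 7, whereas the control lungs kept it or lost it on day 94. The labels give no dosing day for the control lungs. Vector, dosing procedure and time off doxycycline therefore cannot be told apart in comparisons with these controls.

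The median difference of the 9 members was 0.20 after repeated AAV-hSPB against on doxycycline, beside 0.15 for all 773 genes, and 0.31 beside 0.16 against off doxycycline. After repeated AAV-hSPBTLR9i it was 0.16 beside 0.11 against on doxycycline, and 0.18 beside 0.12 against off doxycycline. The panel as a whole thus stood higher in repeat lungs under the authors' scaling to 6 reference genes. Scaled to all 12 reference genes, the median gene after repeated AAV-hSPB was 0.02 above on doxycycline, and scaled to the median gene of each lung it was -0.07. With that last scaling none of the 4 rises against on doxycycline passed, and Trim25 (-0.28, adjusted p = 0.0336) and Trim56 (-0.47, adjusted p = 0.0434) passed as lower. Each rise is therefore also given with the lungs scaled to their median gene.

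**Figure D1:**
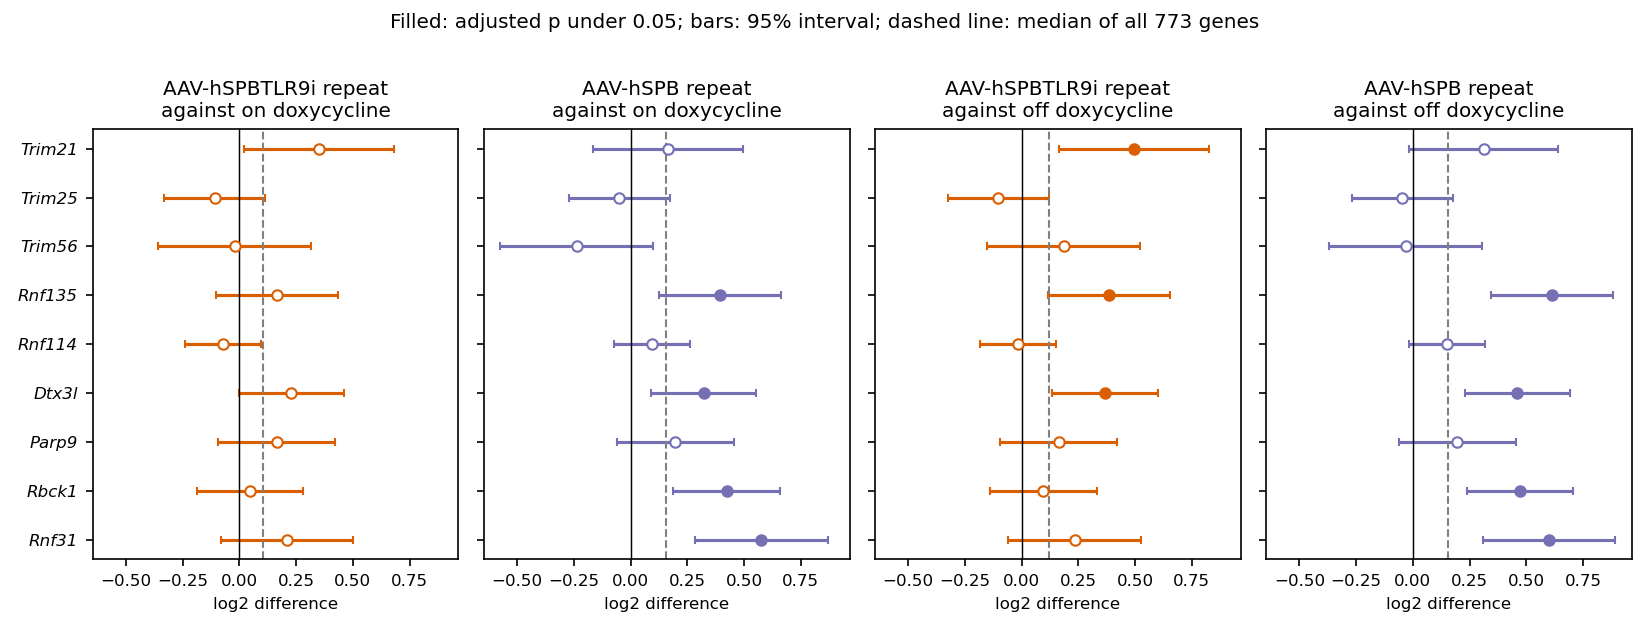
Log2 differences of the 9 members (horizontal axis) with 95% intervals, for both repeat groups against on-doxycycline and off-doxycycline lungs, n = 4 per group. Filled points passed at an adjusted p under 0.05, and the dashed line is the median of all 773 genes. The 4 filled points in each AAV-hSPB repeat panel are Rnf135, Dtx3l, Rbck1 and Rnf31, while the AAV-hSPBTLR9i repeat panel against on doxycycline has none.

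Of the members, the LUBAC subunits had the largest rises in AAV-hSPB repeat lungs against on doxycycline. Rnf31, the catalytic subunit, had levels of 8.22, 8.12, 7.59 and 7.94 in AAV-hSPBTLR9i repeat lungs and of 8.47, 8.68, 8.04 and 8.13 in AAV-hSPB repeat lungs, against 7.65, 7.68, 7.66 and 7.95 off doxycycline and 7.79, 7.83, 7.81 and 7.60 on doxycycline. All 4 AAV-hSPB repeat lungs were above all 8 lungs without vector, whereas AAV-hSPBTLR9i repeat lungs overlapped with both control groups. Rnf31 rose by 0.58 ± 0.14 (SE, 1.49-fold, adjusted p = 0.00475) in AAV-hSPB repeat lungs against on doxycycline, which is 0.42 above the median gene and the 75.8th percentile of the panel. Against off doxycycline it rose by 0.60 ± 0.14 (adjusted p = 0.00319). In both comparisons it passed without any 1 lung and with all 12 reference genes (0.45, adjusted p = 0.0247 and 0.46, adjusted p = 0.0208), and missed the threshold on the median gene (0.35, adjusted p = 0.0863 and 0.41, adjusted p = 0.0539) and with the compared groups alone (adjusted p = 0.0621 and 0.0795). In AAV-hSPBTLR9i repeat lungs Rnf31 differed by 0.21 ± 0.14 from on doxycycline (adjusted p = 0.383) and by 0.23 ± 0.14 from off doxycycline (adjusted p = 0.275).

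Rbck1, the subunit that partners HOIP, had levels of 8.90, 8.72, 8.51 and 8.75 in AAV-hSPBTLR9i repeat lungs and of 9.14, 9.15, 9.23 and 8.86 in AAV-hSPB repeat lungs, against 8.45, 8.60, 8.60 and 8.84 off doxycycline and 8.51, 8.71, 8.82 and 8.65 on doxycycline. The AAV-hSPB repeat lungs again lay above all 8 lungs without vector, the lowest of them by a narrow margin. Rbck1 rose by 0.42 ± 0.11 (1.34-fold, adjusted p = 0.00898) against on doxycycline and by 0.47 ± 0.11 (1.39-fold, adjusted p = 0.00377) against off doxycycline. No 1 lung decided either call. The first of these was lost with all 12 reference genes (0.29, adjusted p = 0.0677), on the median gene (0.19, adjusted p = 0.300) and without AAV-hSPB repeat replicate 2 and on-doxycycline replicate 1 together (0.35, adjusted p = 0.0578). Against off doxycycline it missed the threshold once scaled to the median gene (0.28, adjusted p = 0.140), and both were lost with the compared groups alone (adjusted p = 0.0717 and 0.0926). In AAV-hSPBTLR9i repeat lungs Rbck1 differed by 0.05 ± 0.11 from on doxycycline and by 0.10 ± 0.11 from off doxycycline (adjusted p = 0.853 and 0.637).

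T and B cell markers were high in most repeat lungs. The summed level of the 6 measured T cell markers of 8 listed ran from 1643.1 to 2318.4 in AAV-hSPBTLR9i repeat lungs and from 1341.6 to 2592.7 in AAV-hSPB repeat lungs, against 1028.9 to 1363.8 off doxycycline and 1123.0 to 1601.1 on doxycycline. The sum of 4 measured B cell markers of 6 listed ran from 1871.7 to 2308.5 and from 1119.2 to 2812.1 in these repeat groups, against 563.4 to 1185.7 off doxycycline and 455.0 to 1459.7 on doxycycline. In single-dose lungs, where 0 members passed against on doxycycline, the B cell sum had a median of 1706.2 after AAV-hSPBTLR9i and 1649.9 after AAV-hSPB, against 819.8 on doxycycline. The sum of 4 measured NK cell markers of 5 listed overlapped between the groups, from 519.5 to 781.5 in AAV-hSPBTLR9i repeat lungs and from 556.1 to 1119.6 in AAV-hSPB repeat lungs, against 523.9 to 933.4 off doxycycline and 423.1 to 666.8 on doxycycline. AAV-hSPB repeat replicate 2, with the lowest T and B cell sums of its group (1341.6 and 1119.2), had the highest levels of Rnf31 (8.68) and Rnf135 (7.70) in that group. It also had the lowest levels of Trim21 (6.50), Trim56 (8.63) and Parp9 (8.68) there, and was neither highest nor lowest for the other members. The part of these markers in the members' differences was not tested. In such bulk samples, more cells of a type and more RNA per cell cannot be told apart.

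**Figure D2:**
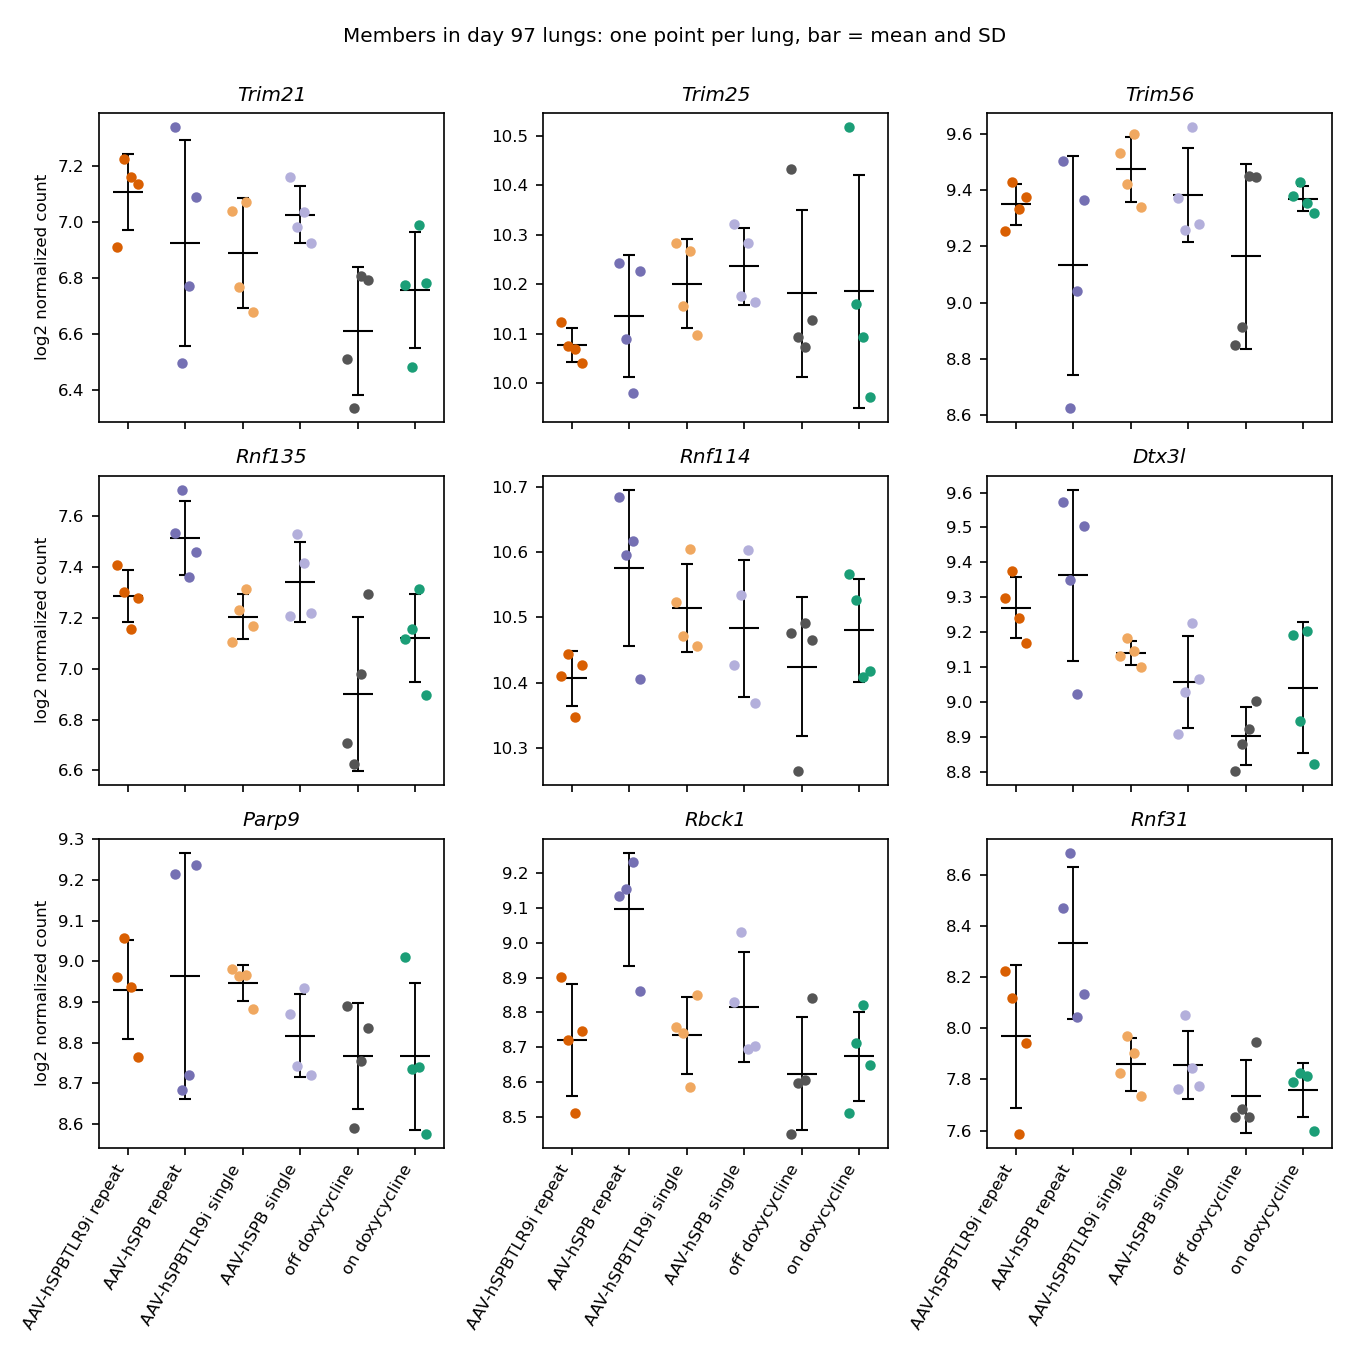
Log2 normalised counts (vertical axes, a separate scale for each gene) of the 9 members in the 24 day 97 lungs, by group. Points are lungs, and bars are the mean and SD of 4 lungs. The AAV-hSPB repeat lungs lie above all lungs without vector for Rnf31, Rbck1 and Rnf135, and Trim56 has a low AAV-hSPB repeat lung at 8.63.

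Of the 2 ligases of the RNA sensor RIG-I, Rnf135 rose and Trim25 did not pass. Rnf135 had levels of 7.41, 7.30, 7.16 and 7.28 in AAV-hSPBTLR9i repeat lungs and of 7.53, 7.70, 7.36 and 7.46 in AAV-hSPB repeat lungs, against 6.71, 6.63, 6.98 and 7.30 off doxycycline and 7.12, 7.16, 7.31 and 6.90 on doxycycline. The AAV-hSPB repeat lungs were above every lung without vector, and the off-doxycycline lungs were the most scattered. Rnf135 rose by 0.61 ± 0.13 (1.53-fold, adjusted p = 0.00186) in AAV-hSPB repeat lungs against off doxycycline, which passed on the median gene (0.42, adjusted p = 0.0485), with all 12 reference genes (0.47, adjusted p = 0.0114) and without any 1 lung, and was lost with the compared groups alone (adjusted p = 0.0766). Against on doxycycline it rose by 0.39 ± 0.13 (adjusted p = 0.0304). Leaving out on-doxycycline replicate 1, 2 or 4 ended that call (adjusted p = 0.0577, 0.0538 and 0.115), as did leaving out replicate 1 or 2 of AAV-hSPB repeat (0.0557 and 0.0815). It also missed the threshold with the compared groups alone (0.0988), scaled to the median gene (0.16, adjusted p = 0.433) or scaled to 12 reference genes (0.26, adjusted p = 0.130). The same was so without AAV-hSPB repeat replicate 2 and on-doxycycline replicate 1 together.

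In AAV-hSPBTLR9i repeat lungs Rnf135 differed by 0.17 ± 0.13 from on doxycycline (adjusted p = 0.461). It rose by 0.38 ± 0.13 against off doxycycline (adjusted p = 0.0454). This call held in only 6 of 24 refits that each left out 1 lung, those without on-doxycycline replicates 3 or 4, off-doxycycline replicate 4, AAV-hSPB single replicate 2 or AAV-hSPB repeat replicates 2 or 3, and the adjusted p reached 0.155 in the others. It was also lost with the compared groups alone (adjusted p = 0.174), on the median gene (0.22, adjusted p = 0.362), with 12 reference genes (0.30, adjusted p = 0.136) under a trended and robust prior (adjusted p = 0.0576) and in voom (0.38, adjusted p = 0.0510).

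Trim25 had a lowest and a highest level of 10.04 and 10.12 in AAV-hSPBTLR9i repeat lungs and of 9.98 and 10.24 in AAV-hSPB repeat lungs, against 10.07 and 10.43 off doxycycline and 9.97 and 10.52 on doxycycline. All 4 groups overlapped. Its differences were -0.11 ± 0.11 after repeated AAV-hSPBTLR9i and -0.05 ± 0.11 after repeated AAV-hSPB against on doxycycline (adjusted p = 0.573 and 0.761). On the median gene both became calls of a lower level (-0.31, adjusted p = 0.0378 and -0.28, adjusted p = 0.0336). With all 12 reference genes neither passed (adjusted p = 0.295 and 0.210).

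Dtx3l rose in both repeat groups against off doxycycline. Its levels were 9.30, 9.37, 9.24 and 9.17 in AAV-hSPBTLR9i repeat lungs and 9.57, 9.35, 9.02 and 9.50 in AAV-hSPB repeat lungs, against 8.80, 8.88, 8.92 and 9.00 off doxycycline and 9.19, 8.95, 9.20 and 8.82 on doxycycline. Every repeat lung was above every off-doxycycline lung, and both repeat groups overlapped with the on-doxycycline group. Against off doxycycline the rise was 0.37 ± 0.11 after AAV-hSPBTLR9i (1.29-fold, adjusted p = 0.0324) and 0.46 ± 0.11 after AAV-hSPB (1.38-fold, adjusted p = 0.00407). The AAV-hSPB call passed without any 1 lung and with all 12 reference genes (0.32, adjusted p = 0.0352), and missed the threshold scaled to the median gene (0.27, adjusted p = 0.0633) and with the compared groups alone (adjusted p = 0.117). The AAV-hSPBTLR9i call missed the threshold on the median gene (0.20, adjusted p = 0.203), with 12 reference genes (0.28, adjusted p = 0.0932) and with the compared groups alone (adjusted p = 0.0573). Leaving out off-doxycycline replicate 1 or 2 ended it too (0.0851 and 0.0666), as did leaving out AAV-hSPBTLR9i repeat replicate 1, 2 or 3 (0.0651, 0.102 and 0.0502).

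Against on doxycycline Dtx3l rose by 0.32 ± 0.11 after repeated AAV-hSPB (adjusted p = 0.0385) and differed by 0.23 ± 0.11 after repeated AAV-hSPBTLR9i (adjusted p = 0.197). The AAV-hSPB rise missed the threshold scaled to the median gene (0.09, adjusted p = 0.518), with all 12 reference genes (0.19, adjusted p = 0.189), with the compared groups alone (adjusted p = 0.219), and when on-doxycycline replicate 2 or 4 (adjusted p = 0.0988 and 0.140) or AAV-hSPB repeat replicate 1, 2 or 4 was left out (0.116, 0.0538 and 0.114). Parp9, the partner of Dtx3l, had levels of 8.96, 9.06, 8.94 and 8.76 in AAV-hSPBTLR9i repeat lungs and of 9.21, 8.68, 8.72 and 9.24 in AAV-hSPB repeat lungs, against 8.89, 8.59, 8.76 and 8.84 off doxycycline and 9.01, 8.74, 8.74 and 8.58 on doxycycline. In AAV-hSPB repeat lungs its values split into 2 high and 2 low ones. The differences of 0.16 ± 0.12 (AAV-hSPBTLR9i repeat) and 0.20 ± 0.12 (AAV-hSPB repeat) against on doxycycline did not pass (adjusted p = 0.443 and 0.249). Without AAV-hSPB repeat replicate 2 and on-doxycycline replicate 1 the AAV-hSPB difference was 0.37 and passed (adjusted p = 0.0340).

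Trim21, the cytosolic antibody receptor, differed most in AAV-hSPBTLR9i repeat lungs. Its levels were 6.91, 7.23, 7.16 and 7.13 in AAV-hSPBTLR9i repeat lungs and 7.34, 6.50, 6.77 and 7.09 in AAV-hSPB repeat lungs, against 6.51, 6.34, 6.81 and 6.79 off doxycycline and 6.78, 6.48, 6.99 and 6.78 on doxycycline. The AAV-hSPBTLR9i repeat lungs lay above all off-doxycycline lungs, and the AAV-hSPB repeat lungs were widely spread, with replicate 2 lowest. Trim21 rose by 0.50 ± 0.16 in AAV-hSPBTLR9i repeat lungs against off doxycycline (1.41-fold, adjusted p = 0.0393) and differed by 0.35 ± 0.16 from on doxycycline (unadjusted p = 0.0387, adjusted p = 0.162). That rise missed the threshold when scaled to the median gene (0.33, adjusted p = 0.192), to 12 reference genes (0.41, adjusted p = 0.0979) or fitted with the compared groups alone (adjusted p = 0.0692). It also did so when off-doxycycline replicate 1 or 2 (0.0960 and 0.123) or AAV-hSPBTLR9i repeat replicate 2, 3 or 4 was left out (0.113, 0.0733 and 0.0830). In AAV-hSPB repeat lungs Trim21 differed by 0.31 ± 0.16 from off doxycycline (adjusted p = 0.155) and by 0.17 ± 0.16 from on doxycycline (adjusted p = 0.469). Without AAV-hSPB repeat replicate 2 it passed against off doxycycline (0.45, adjusted p = 0.0298).

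Trim56, a ligase of the DNA-sensing pathway, had levels of 9.26, 9.43, 9.33 and 9.38 in AAV-hSPBTLR9i repeat lungs and of 9.50, 8.63, 9.04 and 9.36 in AAV-hSPB repeat lungs, against 8.85, 8.91, 9.45 and 9.45 off doxycycline and 9.38, 9.43, 9.35 and 9.32 on doxycycline. The AAV-hSPB repeat and off-doxycycline lungs were the most scattered, and all 4 groups overlapped. The difference after repeated AAV-hSPB was -0.24 ± 0.16 against on doxycycline (adjusted p = 0.289) and -0.07 without replicate 2 of the repeat group (adjusted p = 0.785). After repeated AAV-hSPBTLR9i it was -0.02 ± 0.16 (adjusted p = 0.958).

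Rnf114 had the smallest standard error of the 9 members. Its levels were 10.35 to 10.44 in AAV-hSPBTLR9i repeat lungs and 10.41 to 10.68 in AAV-hSPB repeat lungs, against 10.27 to 10.49 off doxycycline and 10.41 to 10.57 on doxycycline. Its differences from on doxycycline were -0.07 ± 0.08 after repeated AAV-hSPBTLR9i and 0.10 ± 0.08 after repeated AAV-hSPB (adjusted p = 0.639 and 0.404). The sign of the AAV-hSPB difference depends on the scaling, since it was -0.04 with all 12 reference genes and -0.13 on the median gene. The AAV-hSPBTLR9i difference was negative under these scalings too (-0.15 and -0.27).

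**Figure D3:**
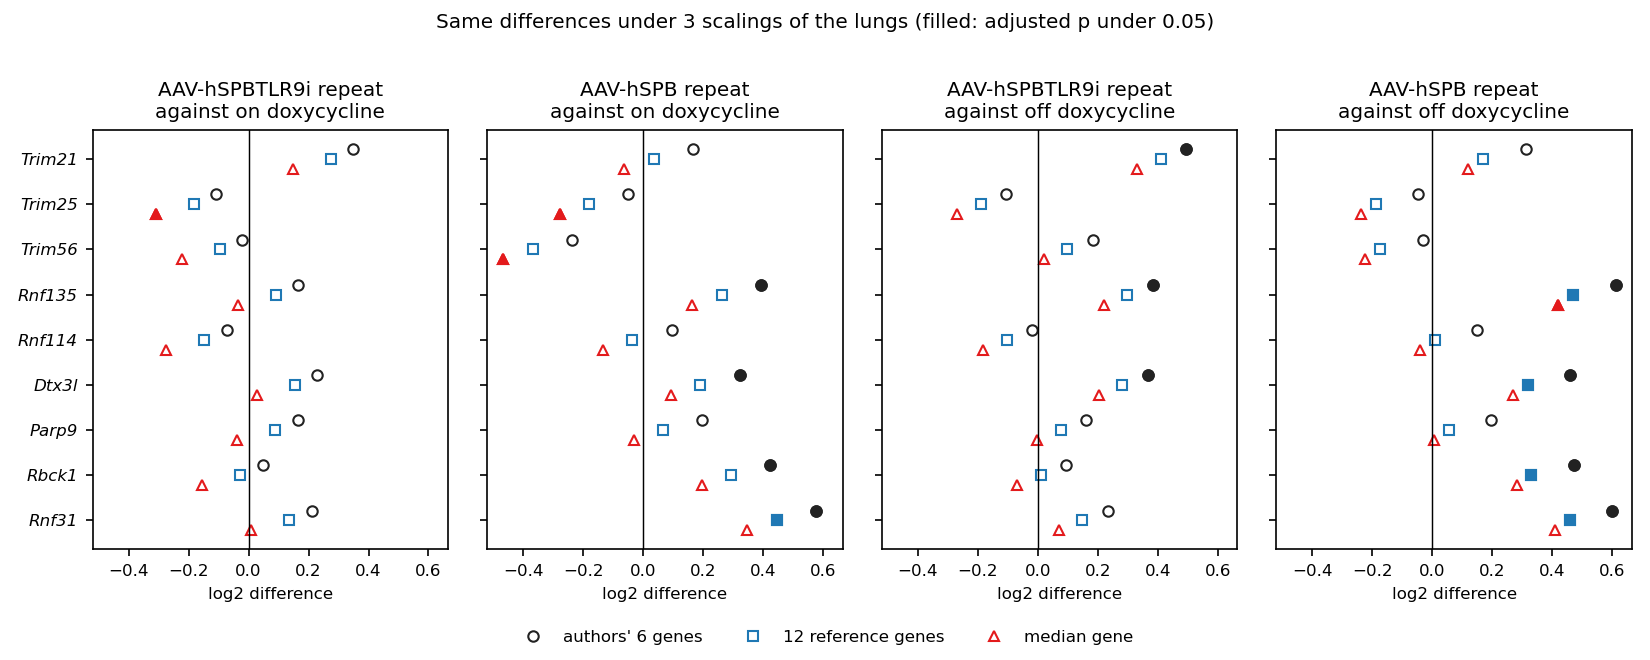
Log2 differences of the 9 members (horizontal axis) in both repeat groups against on-doxycycline and off-doxycycline lungs when each lung is scaled to the authors' 6 reference genes, to all 12 reference genes or to its median gene. Filled symbols passed at an adjusted p under 0.05. Every difference shifts to the left from the 6 genes to the median gene, and Rnf135 in AAV-hSPB repeat against off doxycycline is the only rise filled under all 3 scalings.

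Single doses, taken 97 days after the vector, gave no member that passed against on doxycycline. After a single AAV-hSPBTLR9i dose the 9 differences from on doxycycline ran from 0.02 to 0.18 with adjusted p from 0.647 to 0.975, and after a single AAV-hSPB dose from 0.00 to 0.27 with adjusted p from 0.593 to 0.983. Of the 773 genes, 0.259% passed after AAV-hSPBTLR9i and 0% after AAV-hSPB, and at an unadjusted p under 0.05 it was 0 of 9 members in each, against 10.7% and 10.6% of all genes. After a single AAV-hSPB dose the 95% interval reached up to 0.39 for Rnf31, 0.38 for Rbck1, 0.25 for Dtx3l and 0.49 for Rnf135. The intervals of the AAV-hSPB repeat rises against on doxycycline began at 0.28, 0.19, 0.09 and 0.12 in that order, and so overlapped with these. Both share the on-doxycycline lungs, and the direct comparison of repeat and single doses is given below. Off doxycycline against on doxycycline, 8 of 9 differences were negative, from -0.22 for Rnf135 to 0.00 for Parp9, and 0 passed (0 of 9 at an unadjusted p under 0.05, against 12.4% of all genes).

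Repeat and single doses of the same vector were compared next. The last dose preceded harvest by 7 days in repeat lungs and by 97 days in single-dose lungs, so that number of doses and time since dosing cannot be told apart. After AAV-hSPB, Rnf31 was 0.48 ± 0.14 higher in repeat than in single-dose lungs (1.39-fold, adjusted p = 0.0438), with 8.47, 8.68, 8.04 and 8.13 in repeat lungs against 7.76, 8.05, 7.85 and 7.78 in single-dose lungs, where 1 lung of each group overlapped. It was the only 1 of 9 members to pass, beside 7.24% of all genes. The call held in 10 of 24 refits that each left out 1 lung, those without on-doxycycline replicate 4, off-doxycycline replicates 1, 2 or 4, AAV-hSPB single replicate 2, replicate 3 or 4 of AAV-hSPB repeat, or replicate 1, 2 or 3 of AAV-hSPBTLR9i repeat, and the adjusted p reached 0.125 in the other 14. Among those 14 refits, the call was lost without AAV-hSPB repeat replicate 2. It missed the threshold scaled to the median gene (0.40, adjusted p = 0.119), with 12 reference genes (0.36, adjusted p = 0.116), with the compared groups alone (adjusted p = 0.202), and in voom (0.45, adjusted p = 0.0660). Dtx3l (0.31 ± 0.11, adjusted p = 0.0983) and Rbck1 (0.28 ± 0.11, adjusted p = 0.137) had an unadjusted p under 0.05, as 21.7% of all genes did, and did not pass. Without AAV-hSPB repeat replicate 3 the difference of Dtx3l was 0.42 and passed (adjusted p = 0.0135).

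After AAV-hSPBTLR9i, 0 of 9 members passed between repeat and single doses, beside 0.388% of all genes, and the differences ran from -0.12 to 0.22. Rnf114 was lower in each repeat lung (10.35 to 10.44) than in each single-dose lung (10.46 to 10.61), by -0.11 ± 0.08 (adjusted p = 0.849). The groups did not overlap for 10.1% of all genes in this comparison.

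The vectors were compared directly at matched doses. Between the repeat groups, 0 of 9 members and 0% of the panel passed in AAV-hSPBTLR9i against AAV-hSPB lungs. At an unadjusted p under 0.05 there were 3 of 9 members, against 6.60% of all genes. These were Rbck1 (-0.38 ± 0.11, unadjusted p = 0.00325), Rnf31 (-0.37 ± 0.14, unadjusted p = 0.0167) and Rnf114 (-0.17 ± 0.08, unadjusted p = 0.04995), each with an adjusted p of 0.723 in limma. For Rbck1, 3 of 4 AAV-hSPBTLR9i repeat lungs were below all AAV-hSPB repeat lungs. The 95% interval of the difference was -0.61 to -0.14 for Rbck1 and -0.66 to -0.07 for Rnf31. Scaled to the median gene the 3 differences were -0.35, -0.34 and -0.14, and scaled to 12 reference genes -0.32, -0.31 and -0.11, and 0 passed. Trim21 (0.18 ± 0.16) and Trim56 (0.22 ± 0.16) had positive differences (adjusted p = 0.865 and 0.850).

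Between the single-dose groups the 9 differences of AAV-hSPBTLR9i from AAV-hSPB ran from -0.14 to 0.13, with 0 of 9 at an unadjusted p under 0.05, against 1.03% of all genes, and an adjusted p of 1.00 for each. The change from single to repeat dose was set between the vectors by an interaction term, for which 0 of 9 members and 0% of all genes passed (3.10% of all genes and 0 members at an unadjusted p under 0.05). Its most negative values belonged to Rnf31 (-0.37 ± 0.20, unadjusted p = 0.0793) and Rbck1 (-0.30 ± 0.16, unadjusted p = 0.0784), and its most positive to Trim21 (0.32 ± 0.22, unadjusted p = 0.168). In voom, too, 0 members passed in the comparisons between vectors, in the interaction and in single-dose lungs. Passing after repeated AAV-hSPB and not after repeated AAV-hSPBTLR9i is thus not shown to be a difference between the vectors.

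At 3 h after dosing, 0 of 9 members and 0% of the panel passed in any comparison, and 0 members had an unadjusted p under 0.05 (2.20%, 1.94% and 1.55% of all genes in AAV-hSPB against PBS, AAV-hSPBTLR9i against PBS and AAV-hSPBTLR9i against AAV-hSPB). The 3 h table was normalised apart from that of day 97, so levels are not compared between them. Dtx3l came nearest to separating the groups, with 9.67, 9.29 and 9.07 after AAV-hSPBTLR9i and 9.40, 9.54 and 9.46 after AAV-hSPB, against 9.32, 9.23 and 9.25 after PBS. Each AAV-hSPB lung was above each PBS lung, by 0.20 ± 0.15 in the mean (n = 3 per group, adjusted p = 0.996), as was so for 5.05% of all genes. The AAV-hSPBTLR9i lungs spanned both groups.

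Rnf31 had 8.74, 8.70 and 8.49 after AAV-hSPBTLR9i and 8.72, 8.54 and 8.37 after AAV-hSPB, against 8.86, 8.32 and 8.44 after PBS. Rbck1 had 9.32, 9.55 and 9.45 after AAV-hSPBTLR9i and 9.73, 9.47 and 9.12 after AAV-hSPB, against 9.83, 9.13 and 9.42 after PBS. The PBS lungs spanned nearly the whole range of both genes, with replicate 1 highest. Over the 9 members, differences from PBS ran from -0.11 to 0.13 after AAV-hSPBTLR9i and from -0.15 to 0.20 after AAV-hSPB, with 95% intervals between -0.50 and 0.55.

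**Figure D4:**
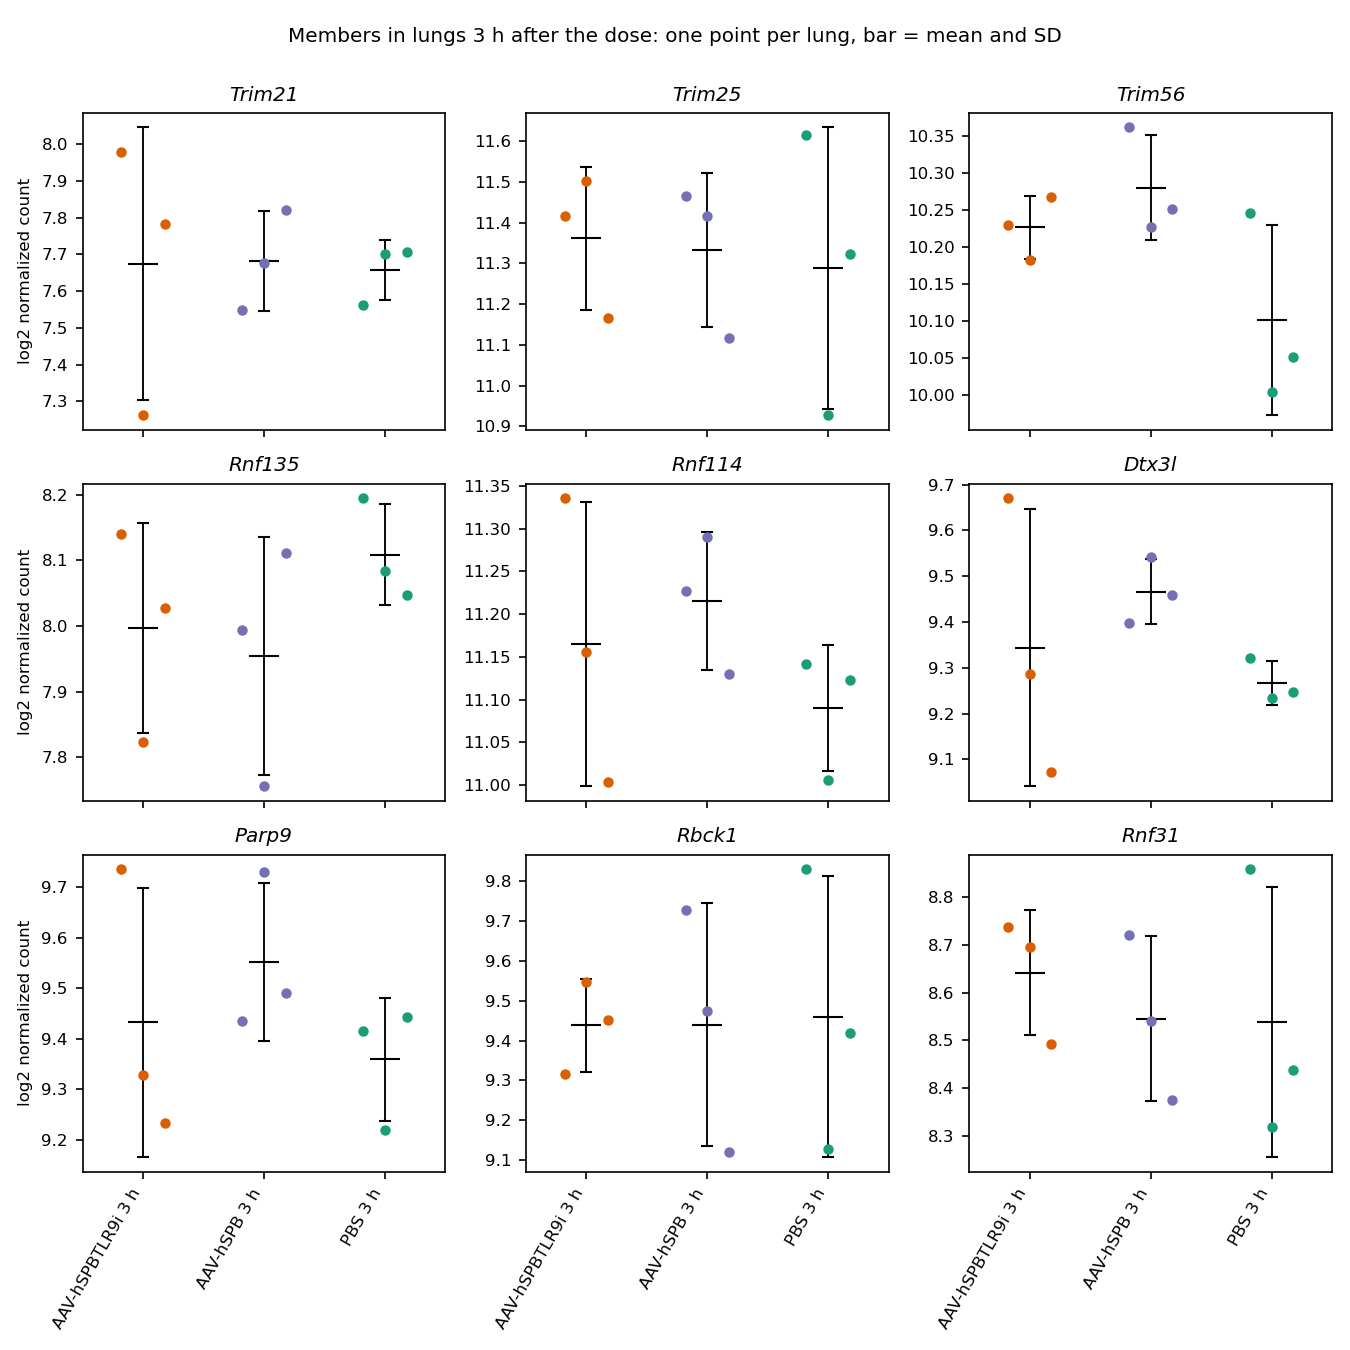
Log2 normalised counts (vertical axes, a separate scale for each gene) of the 9 members in the 9 lungs taken 3 h after dosing, by group. Points are lungs, and bars are the mean and SD of 3 lungs. The 1 pair of groups that does not overlap is that of Dtx3l, whose AAV-hSPB lungs (9.40 to 9.54) are above the PBS lungs (9.23 to 9.32).

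Ordered by group mean, AAV-hSPB repeat lungs were highest for Rnf31, Rbck1, Rnf135, Dtx3l, Parp9 and Rnf114, AAV-hSPBTLR9i repeat lungs for Trim21, and single-dose lungs for Trim25 and Trim56. Off-doxycycline lungs were lowest for Trim21, Rnf135, Dtx3l, Rbck1 and Rnf31. Neighbouring groups in this order overlapped in 45 of 45 cases at day 97 and in 18 of 18 at 3 h, so the order of neighbours is not resolved for any member.

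Partners of the members in the same pathways were counted from listed genes, without the members themselves, and are to be read against the 23.3% of all genes that rose in AAV-hSPB repeat lungs against on doxycycline. In AAV-hSPB repeat lungs against on doxycycline, 6 of 12 measured RNA and DNA sensing genes rose (median 0.43), among them the nucleic acid sensor Zbp1 (2.39 ± 0.27) and Dhx58, the RIG-I relative LGP2 (0.73 ± 0.16). Of 14 interferon receptor and STAT pathway genes 6 rose (median 0.26), with Stat2 at 0.66 ± 0.12 and the kinase Tyk2 at 0.99 ± 0.20. Of 17 antiviral effectors 7 rose (median 0.58), including Samhd1 (0.58 ± 0.09) and Mx1 (1.53 ± 0.30). On the median gene the higher and lower calls of these lists were 2 and 0, 5 and 3, and 6 and 0.

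Of 19 NF-kB and TNF-receptor partners of linear ubiquitin 4 rose (median 0.29), a share close to the 23.3% of all genes. These were Chuk (0.31 ± 0.09), Rela (0.48 ± 0.15), Traf2 (0.36 ± 0.12) and Nfkb2 (0.60 ± 0.21), and none of these passed on the median gene, where 0 of the 19 were higher and 3 lower, or with all 12 reference genes, where 0 passed. Of 7 ISG15 and ubiquitin-like conjugation genes 4 rose (median 0.61), Psmb9 (1.44 ± 0.16), Psmb8 (1.24 ± 0.14), Psmb10 (0.61 ± 0.12) and Isg15 (1.14 ± 0.26). The first 3 of these encode immunoproteasome subunits, which degrade ubiquitinated proteins for antigen presentation. Ube2n, the conjugating enzyme that makes Lys63-linked chains, fell by 0.25 ± 0.08 (adjusted p = 0.0206), with -0.39 when scaled to 12 reference genes and -0.48 when scaled to the median gene. Ube2l6, of the same list, differed by -0.41 ± 0.17 and did not pass (adjusted p = 0.0837). After repeated AAV-hSPBTLR9i it differed by -0.38 ± 0.17 (adjusted p = 0.163). After repeated AAV-hSPB, 4 genes of this list were higher and 2 lower on the median gene, and likewise with all 12 reference genes.

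In AAV-hSPBTLR9i repeat lungs against on doxycycline the same lists had fewer calls, with 1 of 12 sensing genes higher (Zbp1, 1.82), 2 of 14 receptor and STAT genes (Stat2 among them, 0.42), 2 of 17 effectors (Mx1, 1.09 and Samhd1, 0.34), 1 of 19 NF-kB partners (Chuk, 0.29) and 3 of 7 conjugation genes (Psmb9, 1.09, Psmb8, 0.82 and Psmb10, 0.41). Of all genes 11.5% passed in this comparison. On the median gene the higher and lower calls were 1 and 0 of the sensing genes, 1 and 2 of the receptor and STAT genes, 0 and 0 of the effectors, 0 and 0 of the NF-kB partners, and 2 and 2 of the conjugation genes. Whether fewer rose than after AAV-hSPB was not tested for the lists. Of the panel's other TRIM and PARP genes, Trim5, Trim6, Trim26, Trim33 and Parp1, 0 of 5 passed in either repeat group against on doxycycline, and Parp1 had the smallest adjusted p (0.35 ± 0.13, adjusted p = 0.0529 after AAV-hSPB and 0.34 ± 0.13, adjusted p = 0.0943 after AAV-hSPBTLR9i).

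Across the 24 day 97 lungs, the members did not vary as a block. Pearson r between log2 levels ran from -0.33 (Trim25 and Rbck1) to 0.79 (Rnf135 and Rnf31) over the 36 pairs, with a median of 0.31. With group means removed it ran from -0.48 to 0.79, with a median of 0.25. The LUBAC pair Rbck1 and Rnf31 had r = 0.76 (0.50 with group means removed) and the pair Dtx3l and Parp9 had r = 0.715 (0.68). Within groups the pair with the highest r was Trim21 and Trim56 (0.79), followed by Trim25 and Parp9 (0.745). These are descriptions over lungs that share groups, scaling and AAV-hSPB repeat replicate 2, which was low in both Trim21 and Trim56.

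**Figure D5:**
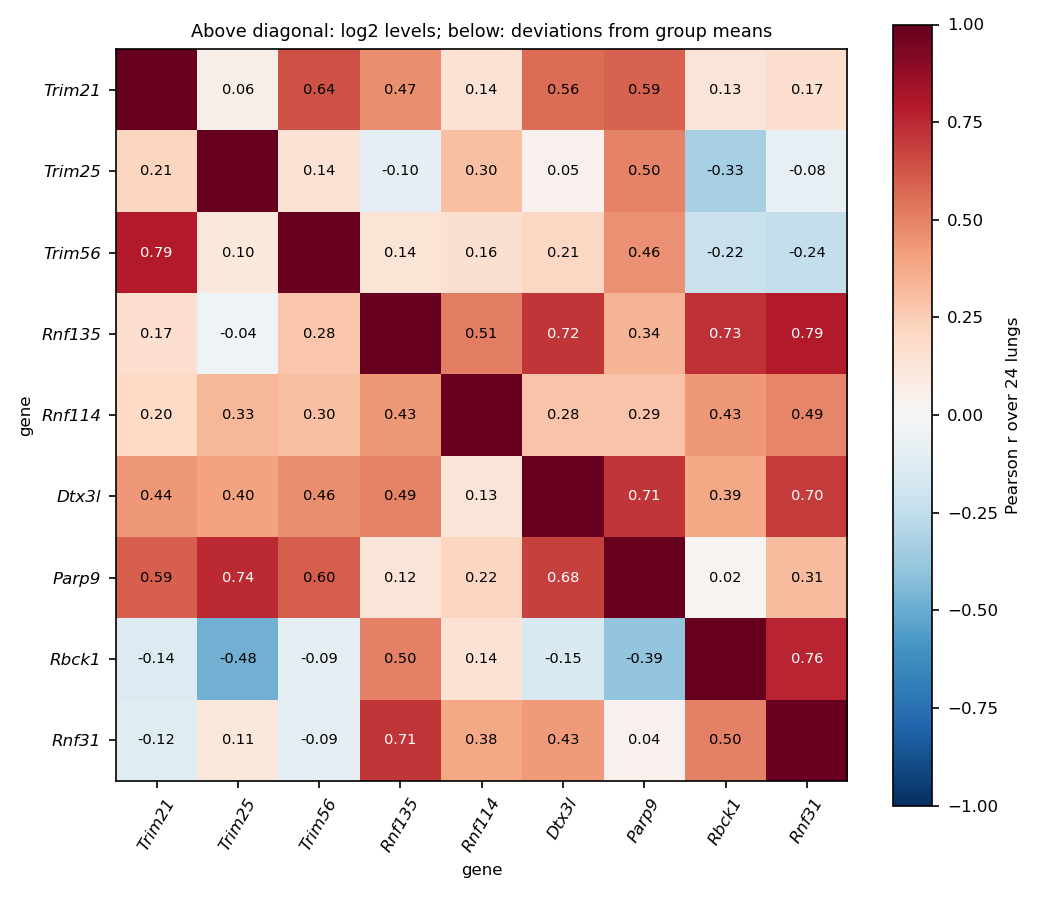
Pearson r over the 24 day 97 lungs for each of the 36 pairs of members (rows and columns), for log2 levels above the diagonal and for deviations from group means below it. Rnf31, Rbck1 and Rnf135 form pairs with r of 0.73 to 0.79 above the diagonal, while Trim25 and Trim56 have r of -0.33 and -0.22 with Rbck1.

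The panel genes most like each member over these 24 lungs, by Pearson r of log2 levels, differed between members. For Rnf31 they were Tap2 (r = 0.88), Xaf1 (0.87) and Tyk2 (0.85), and for Dtx3l they included Gbp2 (0.82) and Stat2 (0.82). For Rbck1 they were Mtor (0.85), H2-Q2 (0.77) and Pxn (0.76), for Rnf135 they included H2-Q2 (0.83) and Maf (0.81), and for Trim21 Blk (0.85), P2rx7 (0.80) and Ddx58 (0.79), which encodes RIG-I. For Trim56 the nearest was Ccrl2 (0.90), for Parp9 Ccr6 (0.71), for Rnf114 Cd81 (0.66) and for Trim25 Ifngr1 (0.66). With group means removed, the nearest gene was Igfbp7 for Rnf31 (0.79), Psmb9 for Dtx3l (0.71) and Ifih1, another RNA sensor, for Trim21 (0.82), while Mtor (0.84) and Ccrl2 (0.91) remained nearest to Rbck1 and Trim56.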

How the data were processed

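Log2 values and the linear signal behind them were deposited by the authors in a table for day 97 and another for 3 h, normalised separately. Per the labels, they come from nCounter counts. The day 97 log2 values had a constant mean over 6 of 12 reference genes, and the deposited series matrix (unit not stated) over all 12. For the series matrix fit, 757 matrix rows were used, whose RefSeq identifier named a gene of the log2 values and which held that gene's values. At 3 h, 0 matrix rows held their own gene's values, and 9 columns were left unused. Whole counts were recovered from the signal within a tolerance of 0.02, for depth and for a voom alternative.

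Groups followed the sample labels. Differences were fitted per table across 773 genes with limma 3.58.1 in R 4.3.3 (lmFit and eBayes, all groups of a table in 1 fit, residual degrees of freedom of 18 for day 97 and of 6 for 3 h), without a filter on low values, with Benjamini-Hochberg adjustment and a threshold of 0.05, two-sided. The fit was tested on simulated data. The alternatives were both other scalings, the series matrix, the compared groups alone, a trended and robust prior, sex as a covariate, leaving out the lowest 25% of genes, leaving out each lung, and leaving out AAV-hSPB repeat replicate 2 with on-doxycycline replicate 1. Voom with the authors' scaling was added after seeing the data. All 9 members were tested in each comparison, though some comparisons give only a range or a count for most of them. Also named are up to 4 genes of each list by smallest p in AAV-hSPB repeat against on doxycycline, and the genes most like each member by Pearson r. Ube2n, the 1 lower gene of its list under the authors' scaling, and Ube2l6 were named after their values were seen. The rule for the members uses names alone, but members and lists were chosen with earlier results of these data known. Some genes that the rule names are not reported here.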

Additional observations from a re-analysis of the deposited data

Results flagged for a closer look

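In 4 of the 54 combinations of a member and a group of 4 lungs, 1 lung lay far from the other 3 by Dixon's test, which chance gives in about 1 of 20 combinations. Trim25 was high in off-doxycycline replicate 1 (10.43), Rnf114 was low in off-doxycycline replicate 2 (10.27), Rnf31 was high in off-doxycycline replicate 4 (7.95) and Rnf31 was low in on-doxycycline replicate 4 (7.60). The calls of Rnf31 in AAV-hSPB repeat lungs passed without any of these lungs.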

How the results depend on the processing

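No member's call changed direction in any alternative run. Counts of members that passed changed as follows. On the median gene, 2 passed as lower and 0 as higher in AAV-hSPB repeat against on doxycycline, 1 as lower in AAV-hSPBTLR9i repeat against on doxycycline, 1 in AAV-hSPB repeat against off doxycycline, 0 in AAV-hSPBTLR9i repeat against off doxycycline and 0 in AAV-hSPB repeat against single. With all 12 reference genes, and with the series matrix, these were 1 in AAV-hSPB repeat against on doxycycline, 0 in AAV-hSPBTLR9i repeat against off doxycycline and 0 in AAV-hSPB repeat against single. With the compared groups alone 0 passed in each of the 4 comparisons that had calls. With voom, and without AAV-hSPB repeat replicate 2 and on-doxycycline replicate 1 together, 0 passed in AAV-hSPB repeat against single. Without these 2 lungs, 3 passed in AAV-hSPB repeat against on doxycycline and 5 against off doxycycline. With voom, and with the trended and robust prior, 2 passed in AAV-hSPBTLR9i repeat against off doxycycline. Leaving out 1 lung at a time gave 2 to 4 calls in AAV-hSPB repeat against on doxycycline, 4 to 5 against off doxycycline, 0 to 3 in AAV-hSPBTLR9i repeat against off doxycycline and 0 to 2 in AAV-hSPB repeat against single. Over all genes, higher and lower calls in AAV-hSPB repeat against on doxycycline were 180 and 23 with the authors' scaling, 114 and 73 with 12 reference genes and 98 and 119 on the median gene. The calls thus depend on the scaling, and which scaling is nearer to the RNA content of the lungs was not tested. TMM scaling was not run, nor were 12 reference genes or the series matrix at 3 h. No paired analysis was possible because the groups share no replicate numbers in the labels. Depth limits Trim21 most, which had the lowest counts of the members.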
